A study of Mus musculus with 10 samples.

Results

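The circadian clock and clock-output genes described here are 28 genes chosen by name: the transcription factors that drive the clock, the repressors that close its loop, the kinases that act on those repressors, and liver genes whose transcripts are known to follow the clock. All 28 were found among the 55401 genes listed in the count tables, and 27 passed the filter on low counts, which left 12234 genes to test. Npas2 was the member that did not pass.

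The study deposited RNA-seq counts from whole livers of 5 wild-type mice (WT) and 5 littermates with a liver-specific knockout of the gene for thyroid hormone receptor beta (THRB-KO), with 1 library per mouse on a strain labelled C56Bl6/J in one field and C57Bl6/J in another. The knockout is a cross of a Thrb-loxP allele with Afp-Cre, a Cre recombinase driven by the alpha-fetoprotein promoter. Cells in which that promoter was never active keep the gene, while the RNA comes from the whole liver. Which of the liver cells lost the gene was not measured. Both groups were kept on a daily light-dark cycle with free access to standard chow, and no treatment is labelled. The hour of collection, the sex and the age are not given for these 10 mice in the labels or in the methods of the study, so clock phase and genotype cannot be told apart where mice were collected at different hours. Because the libraries are bulk liver, fewer cells of a type and less RNA per cell cannot be told apart. The p-values measure the spread between these 10 libraries.

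The mammalian clock is a feedback loop of transcription. ARNTL (BMAL1), paired with CLOCK or NPAS2, binds E-boxes and switches on the Per and Cry genes, whose products then repress that pair, while NR1D1 and NR1D2 (REV-ERB alpha and beta) repress and RORA activates Arntl through ROR response elements. DBP, TEF and HLF activate, and NFIL3 represses, genes that carry D-boxes, and through them the liver clock reaches genes of xenobiotic, heme and NAD metabolism.

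These 3 elements were searched in the promoters of the members, since they are the letters through which clock factors read a gene. RefSeq start sites on GRCm38.p6 gave windows for 24 of the 28 members, 33 windows in all. The windows reach past the start site, and only the 250 bases before it were searched, on both strands. The E-box CACGTG was found in 7 of 33 windows (21.2%) from 6 members, and in 6.02% of all 32851 promoter windows. The D-box, written as TTATGTAA or TTACGTAA, was in 1 member window (3.03%) against 0.931% of all windows. The core of the ROR element, written as TAGGTCA or TGGGTCA, was in 1 member window, that of Nfil3 (3.03%), against 5.38% of all windows. The E-box reads the same on both strands, and windows of the same gene can overlap. The stretches that follow show the element in a period gene, a cryptochrome, an activator of output genes and the repressor Ciart, whose window held 3 E-boxes, and the pair of D-boxes before Per3. Capitals mark the element and the strand is that of the gene.
Per1, chr11:69098763-69098808, plus strand: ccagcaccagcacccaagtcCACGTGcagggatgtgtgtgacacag
Cry1, chr10:85185089-85185134, minus strand: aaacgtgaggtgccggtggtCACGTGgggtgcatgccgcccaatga
Tef, chr15:81811256-81811301, plus strand: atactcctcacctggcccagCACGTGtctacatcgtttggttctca
Ciart, chr3:95882319-95882364, minus strand: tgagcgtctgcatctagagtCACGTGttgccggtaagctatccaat
Per3, chr4:151044796-151044890, minus strand: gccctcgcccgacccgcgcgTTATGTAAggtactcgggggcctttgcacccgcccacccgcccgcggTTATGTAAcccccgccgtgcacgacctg
A match is a description of these windows and not a measured binding site.

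Total counts per library lay between 26477195 and 28590704, and levels are given as normalized CPM, which are counts scaled to the library total after TMM correction. At this depth 3 counts equal 0.105 to 0.113 CPM. Thrb read 32.5 to 34.2 normalized CPM in WT and 24.9 to 28.8 in THRB-KO livers, and these counts cover all exons of the gene, deleted or not. Markers of hepatocytes were abundant in every library and 0 of 6 passed the test. Among other lists, Hp, Saa1, Saa2, Lcn2 and Orm2, 5 of the 6 acute-phase genes, were lower in THRB-KO livers (adjusted p from 0.022 to 0.07, edgeR), with summed levels of 11254 to 39560 CPM in WT and 7454 to 12150 in THRB-KO livers. All 6 Kupffer cell markers read lower in THRB-KO livers, with 0 past the test and 3 at an unadjusted p below 0.05 (edgeR). Their median log2 fold change was −0.79, and their sum was 80.3 to 331 CPM in WT and 92.2 to 199 in THRB-KO livers. Of the markers tested for other cells, S100a8 of neutrophils was lower (log2 fold change −2.67, adjusted p = 0.13, edgeR). Its levels were low, at 0.664 to 6.01 CPM in WT, highest in WT replicates 2 and 3, and 0.0993 to 1.08 in THRB-KO livers. S100a9 and Ly6g, the other neutrophil markers, did not pass the filter on low counts. Des of stellate cells was higher (0.67, adjusted p = 0.057, edgeR), and all 4 lymphocyte markers stayed below 1 CPM. The part of these cells and of the acute-phase genes in the values of the clock genes was not tested. WT replicate 5 lay far from the rest of its group in 2 members and THRB-KO replicate 1 in 3, and values without these mice are given beside the results that they move most.

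No member differed between genotypes past the threshold. With the threshold of 0.15 on the adjusted p, edgeR called 0 of the 27 members tested, against 499 of 12234 genes overall (4.08%). At an unadjusted p below 0.05 the count was 1 of 27, Per3, against 13.6% of all genes, while DESeq2 called 0 members with 4 below 0.05 and limma-voom called 0 with 2. In no member did the 5 WT mice lie wholly above or below the 5 THRB-KO mice, and 3.64% of all genes were separated in that way. With only 27 members tested, counts of 0 lie near the shares of 4.08% and 3.64% and do not set the members apart. The fitted log2 fold change, THRB-KO over WT, was above 0 in 18 members and below 0 in 9. Its median was 0.07 over the members and 0.0005 over all genes tested. The median size regardless of sign was 0.14 against 0.11.

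The spread between mice of the same genotype was large in most of the clock genes. Their median biological coefficient of variation, which is the spread between mice left after counting noise, was 23.4% against 14.1% for all genes tested, which were not matched to them in level. Rgs16 had the largest, 62.1%, followed by Noct with 46.6% and Ciart with 36.1%. Csnk1d, a kinase of the PER proteins, had 8.65%, at percentile 0.204 of all genes. For 23 of the 27 members the 95% interval of the log2 fold change lay inside −1 to 1, and the other 4 were Per2, Ciart, Noct and Rgs16.

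**Figure D1:**
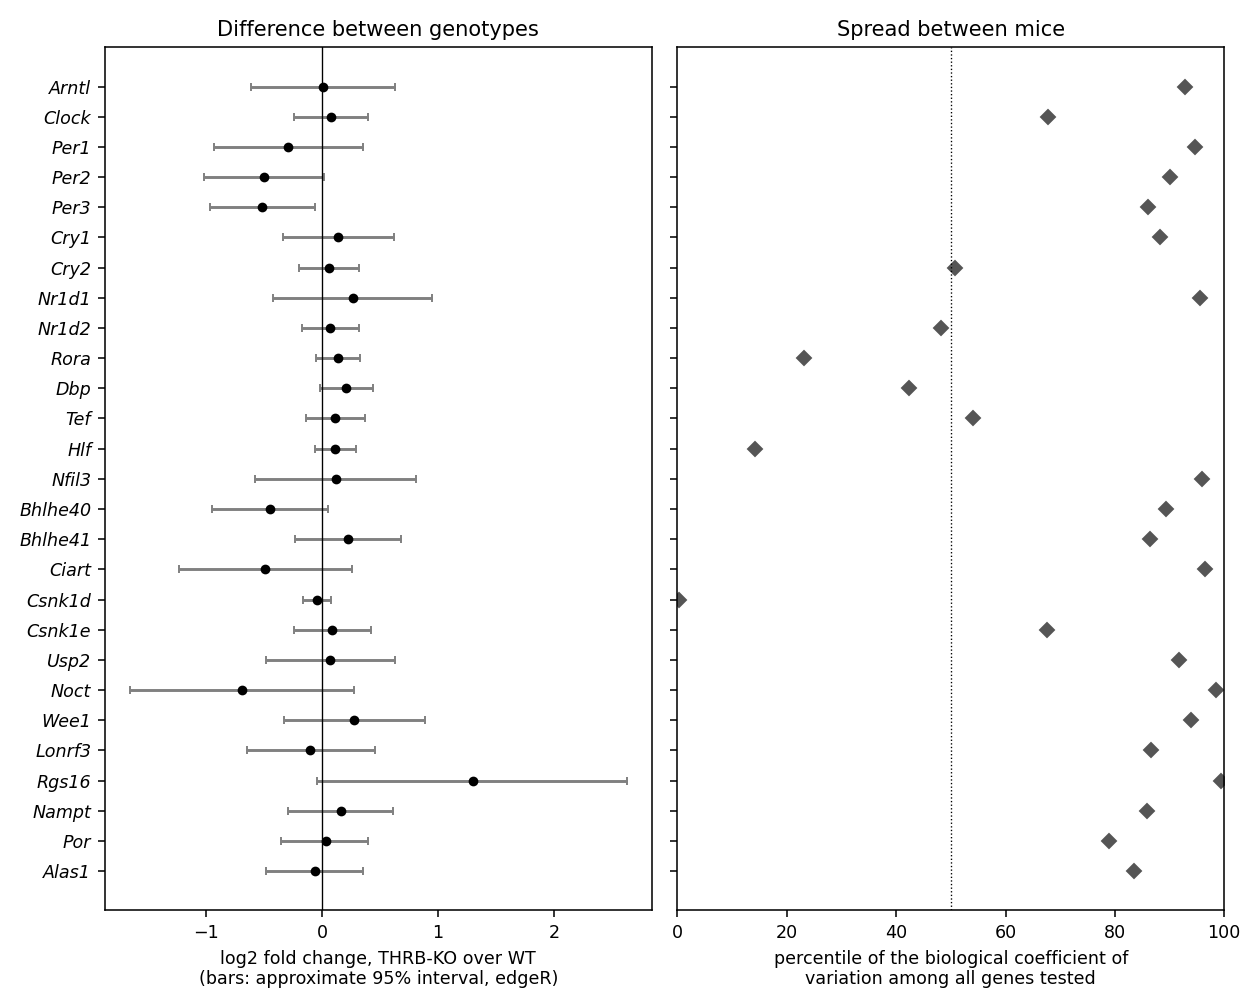
Left, the log2 fold change of the 27 members tested, THRB-KO over WT, with bars for the approximate 95% interval from edgeR. Right, the percentile of each gene's biological coefficient of variation among all 12234 genes tested, with a dotted line at 50. Intervals are widest for Rgs16 and Noct, and Csnk1d sits at the bottom of the percentile scale.

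The activators of the loop were low or steady. Arntl read 1.85, 2.06, 1.86, 0.781 and 1.2 normalized CPM in WT replicates 1 to 5, and 2.26, 1.27, 1.75, 1.59 and 0.955 in THRB-KO replicates 1 to 5. WT replicate 4 and THRB-KO replicate 5 were the low mice of their groups, and the means were 1.55 ± 0.54 and 1.57 ± 0.493 (SD, n = 5 each). The log2 fold change was 0.01 with an interval of −0.61 to 0.63 (adjusted p = 0.99). Per kilobase of exon, Arntl was at 0.206 CPM in WT livers, below every other member but Npas2. Npas2, the partner that can stand in for CLOCK, had raw counts of 6, 5, 1, 4 and 0 in WT and 15, 2, 5, 5 and 3 in THRB-KO livers. Only 6 of the 10 libraries held more than 3 of its counts, so no difference in it was detectable at this depth. Clock, the histone acetyltransferase partner of ARNTL, read 28.3, 32.1, 27.1, 23.5 and 22.5 in WT and 32.3, 23, 33.6, 31.5 and 20.7 in THRB-KO livers. Its groups overlapped over most of their range, and the log2 fold change was 0.08 (SE 0.15, adjusted p = 0.87).

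The period genes encode the PER repressors, and all 3 had fitted fold changes below 0 with none past the test. Per1 read 38.1, 23.3, 25.3, 29 and 67.8 normalized CPM in WT and 29.2, 38.1, 26.9, 33.4 and 22.4 in THRB-KO livers. Its mean was 36.7 ± 18.3 against 30.0 ± 6.02 (SD, n = 5 each), with a log2 fold change of −0.29 (SE 0.29, adjusted p = 0.73). WT replicate 5 was the high mouse, and without it the fold change was 0.05. Per2 read 33.1, 32.8, 35.9, 25.6 and 58 in WT and 16, 32.5, 26.5, 24.2 and 32.1 in THRB-KO livers. The same WT mouse was high and THRB-KO replicate 1 was low, and the log2 fold change was −0.50 with an interval of −1.02 to 0.02 (adjusted p = 0.39). Without WT replicate 5 it was −0.28, and without both mice −0.15 (adjusted p = 0.68).

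Per3 was the member with the lowest p. It read 42.5, 37.1, 38.9, 42.9 and 75 normalized CPM in WT and 24.9, 38, 35.7, 26.5 and 40.3 in THRB-KO livers. The THRB-KO mice with 38 and 40.3 lay inside the WT range. The means were 47.3 ± 15.7 and 33.1 ± 6.95 (SD, n = 5 each), and the log2 fold change was −0.52 with a standard error of 0.21 and an interval of −0.97 to −0.06. The unadjusted p was 0.031 and the adjusted p 0.31, and the exact two-sided permutation test over the 10 mice gave p = 0.040, where the smallest it can give is 0.0079. Over 17 other settings the adjusted p ran from 0.18 to 0.54. Without WT replicate 5 the fold change was −0.29, and without both that mouse and THRB-KO replicate 1 it was −0.20 (adjusted p = 0.54).

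The cryptochromes repress ARNTL and CLOCK together with the PER proteins, and both had fitted fold changes above 0. Cry1 ranged from 4.82 to 7.86 normalized CPM in WT and from 4.59 to 9.27 in THRB-KO livers, with a log2 fold change of 0.14 (SE 0.22, adjusted p = 0.85). Cry2 ranged from 36.8 to 54.1 in WT and from 39.8 to 56.4 in THRB-KO livers, with a log2 fold change of 0.06 (SE 0.12, adjusted p = 0.89). For Cry2 the interval of −0.20 to 0.32 bounded the difference more closely than for any of the period genes. Over the 5 repressors the median log2 fold change was −0.29, with 2 above and 3 below 0.

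The nuclear receptors of the stabilizing loop include both neighbours of the thyroid hormone receptor genes. On GRCm38, Nr1d2 (chr14:18204054-18239127, minus strand) lies 166 kb from Thrb on the same chromosome. Nr1d1 (chr11:98767932-98775333, minus strand) shares 263 bases of exon with Thra, the gene for thyroid hormone receptor alpha, on the opposite strand, and reads that fell on both were not counted. Nr1d1 read 99.6, 92.8, 93.5, 106 and 36.9 normalized CPM in WT and 166, 72.9, 112, 88.4 and 76.7 in THRB-KO livers. WT replicate 5 was far below the other WT mice and THRB-KO replicate 1 was above all other mice. The log2 fold change was 0.27 with an interval of −0.42 to 0.95 (adjusted p = 0.77), and without both of those mice it was −0.16. Nr1d2 read 100.4, 82.3, 75.3, 90.9 and 71.8 in WT and 72.8, 103, 88.3, 81.5 and 96.4 in THRB-KO livers. Its log2 fold change was 0.07 with an interval of −0.17 to 0.32 (adjusted p = 0.85), so that the gene next to Thrb was held within a narrow range. Thra itself had a log2 fold change of 0.18 (adjusted p = 0.60). Rora spanned 53.9 to 57.9 CPM in WT and 50.5 to 73.6 in THRB-KO livers, with a log2 fold change of 0.14 (SE 0.09, adjusted p = 0.53).

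All 4 bZIP factors that act on D-boxes had fitted fold changes above 0, with a median log2 fold change of 0.12, and none passed the test. Dbp read 105, 99.6, 99, 127 and 92.7 normalized CPM in WT and 104, 131, 119, 112 and 141 in THRB-KO livers. WT replicate 4 lay above 3 of the 5 THRB-KO mice. The means were 105 ± 13.3 and 121 ± 14.8 (SD, n = 5 each), with a log2 fold change of 0.21 and an interval of −0.02 to 0.44 (adjusted p = 0.40). Of the exon bases of Dbp (chr7:45705088-45710203, plus strand), 539 are shared with Sphk2 on the other strand, so its counts come from the rest of the gene. Tef, the most abundant of the 4 by CPM, ranged from 245 to 309 in WT and from 219 to 345 in THRB-KO livers (log2 fold change 0.11, adjusted p = 0.74). Hlf ranged from 55.2 to 68.6 and from 62.2 to 71.9 (log2 fold change 0.11, adjusted p = 0.58). Nfil3, their antagonist, read 21.5, 10.4, 23, 11.3 and 9.17 in WT and 24.8, 10.1, 17.1, 15.8 and 13.8 in THRB-KO livers. The mice of each genotype spread more than the genotypes did, and its log2 fold change was 0.12 with an interval of −0.58 to 0.81 (adjusted p = 0.92).

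Among the further repressors of E-box genes, Bhlhe40 (DEC1) had a median of 197 normalized CPM in WT, with a highest value of 252, and a median of 129 in THRB-KO livers, with a highest value of 193. Its log2 fold change was −0.45 with an interval of −0.95 to 0.05 (adjusted p = 0.42). Ciart (CHRONO) read 15, 11.5, 14.3, 23.3 and 33.8 in WT and 10.1, 24, 12.6, 12 and 11.4 in THRB-KO livers. THRB-KO replicate 2 was far above the other mice of its group, and the log2 fold change was −0.49 (SE 0.33, adjusted p = 0.58). It was −0.76 without that mouse, −0.20 without WT replicate 5 and −0.10 without both WT replicate 5 and THRB-KO replicate 1. Bhlhe41 (DEC2) was low, at 3.67 to 8.95 in WT and 5.59 to 7.32 in THRB-KO livers (log2 fold change 0.22, adjusted p = 0.71), and 1280 bases of its exons are shared with a transcript on the other strand. The casein kinases that phosphorylate PER proteins were flat. Csnk1d spanned 83.6 to 87.4 in WT and 80.5 to 84.8 in THRB-KO livers, with an interval of −0.16 to 0.08 around a log2 fold change of −0.04 (adjusted p = 0.80). Csnk1e spanned 4.42 to 5.71 and 4.31 to 7.19 (log2 fold change 0.09, adjusted p = 0.86).

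**Figure D2:**
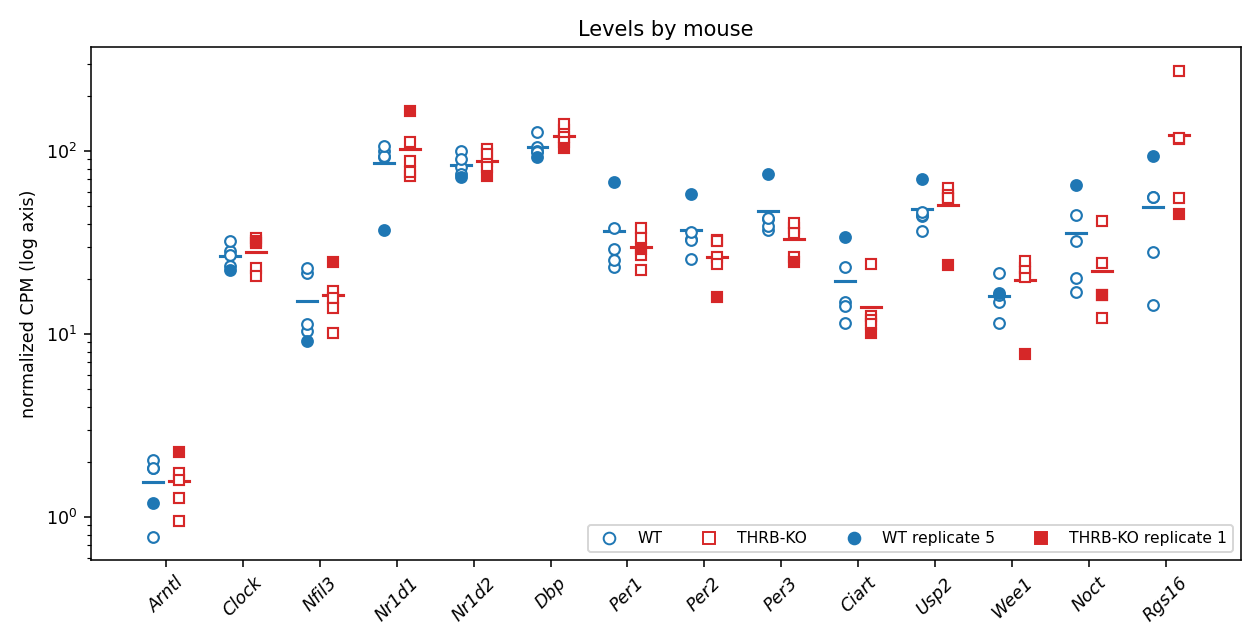
Normalized CPM on a log axis for 14 members in each of the 10 mice, with blue circles for WT, red squares for THRB-KO and horizontal bars for the group means. Filled symbols are WT replicate 5 and THRB-KO replicate 1. The genotypes overlap in every gene, and the filled circle lies above and the filled square below the other mice of their groups in Per2 and Per3.

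The output genes held the largest fold change of the list. Rgs16, a regulator of G protein signalling whose transcript in liver also follows fasting, read 55.9, 14.4, 28.2, 55.9 and 94.2 normalized CPM in WT and 45.5, 117, 275, 55.1 and 118 in THRB-KO livers. THRB-KO replicates 2, 3 and 5 lay above every WT mouse, and the other two lay inside the WT range. The means were 49.7 ± 30.6 and 122 ± 92.0 (SD, n = 5 each), a fold of 2.46 with an interval of 0.974 to 6.20 (adjusted p = 0.38). Over 17 other settings the log2 fold change ran from 0.75, without THRB-KO replicate 3, to 1.9, and the lowest adjusted p was 0.17. Noct, a deadenylase-like protein also called nocturnin, read 45, 32.2, 17, 20.2 and 64.9 in WT and 16.3, 24.6, 16.3, 41.5 and 12.3 in THRB-KO livers. Its log2 fold change was −0.69 with an interval of −1.66 to 0.28 (adjusted p = 0.54). It was −1.0 without THRB-KO replicate 4, −0.36 without WT replicate 5 and −0.27 without both WT replicate 5 and THRB-KO replicate 1.

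Usp2, a deubiquitinase, read 43.9, 36.5, 44.6, 46.3 and 70.0 normalized CPM in WT and 23.9, 62.6, 54.4, 57.2 and 55.7 in THRB-KO livers. THRB-KO replicate 1 was far below its group and WT replicate 5 above its own. With all mice the log2 fold change was 0.07 with an interval of −0.48 to 0.63 (adjusted p = 0.94). Without those mice it was 0.42 and passed the test (adjusted p = 0.069, edgeR), an alternative chosen after seeing the data. Wee1, the kinase that restrains entry into mitosis, read 14.9, 11.5, 16.4, 21.6 and 16.7 in WT and 7.82, 21.8, 20.6, 23.1 and 25 in THRB-KO livers. Its log2 fold change was 0.28 (SE 0.28, adjusted p = 0.73), and without THRB-KO replicate 1, the low mouse, it was 0.48 (adjusted p = 0.14).

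The metabolic outputs overlapped widely between genotypes. Nampt, the rate-limiting enzyme of NAD salvage, ranged from 58.2 to 80.6 normalized CPM in WT and from 42.4 to 106 in THRB-KO livers (log2 fold change 0.16, adjusted p = 0.80). Alas1, the rate-limiting enzyme of heme synthesis, ranged from 543 to 608 in WT and from 318 to 822 in THRB-KO livers (log2 fold change −0.06, adjusted p = 0.93). Por, which passes electrons to the microsomal cytochromes P450, ranged from 326 to 608 in WT and from 423 to 542 in THRB-KO livers (log2 fold change 0.03, adjusted p = 0.97). Per kilobase of exon these last 2 were the highest of all members, with 117 CPM for Por and 93.9 CPM for Alas1 in WT livers. Lonrf3, a RING finger gene, stayed between 0.66 and 1.57 CPM over all mice (log2 fold change −0.10, adjusted p = 0.92).

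Some mice held the extreme places of their genotype more often than others. WT replicate 5 was the highest or lowest WT mouse in 19 of 27 members (70.4%), 12 times the highest and 7 times the lowest, against 42.9% of all genes tested. THRB-KO replicates 1 and 5 each held an extreme place in 17 of 27 members (63%), against 49.1% and 29.6% of all genes. WT replicate 2 did so in 14 members (51.9%, against 35.5%), in 11 of them as the lowest. WT replicate 1 did so in 4 members (14.8%, against 39.4%). In WT replicate 5 the 3 period genes, Cry1, Tef, Bhlhe40, Ciart, Usp2, Noct, Lonrf3, Rgs16 and Nampt were the highest of the group. Nr1d1, Nr1d2, Clock, Nfil3, Dbp, Csnk1d and Csnk1e were the lowest. Arntl, at 1.2 CPM, was not the lowest, since WT replicate 4 read 0.781. In THRB-KO replicate 1 Per2, Per3, Cry1, Nr1d2, Dbp, Tef, Ciart, Usp2, Wee1, Lonrf3, Rgs16 and Nampt were the lowest. Nr1d1, Arntl, Nfil3, Csnk1d and Csnk1e were the highest there, as was Npas2 among the untested. Dbp and Nr1d2 were thus the lowest of the group in both of these mice. In THRB-KO replicate 5 Per3, Cry1, Cry2, Rora, Dbp, Hlf, Bhlhe41, Wee1 and Lonrf3 were the highest of the group. Arntl, Clock, Per1, Bhlhe40, Csnk1e, Noct, Por and Alas1 were the lowest in that mouse. These directions are read from the same values that set the mice apart and are given as a description.

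Some genes outside the clock were also the highest of their group in WT replicate 5. Fkbp5, a glucocorticoid-induced chaperone, read 144 normalized CPM in WT replicate 5 against 48.3 to 80.7 in the other WT mice, and Tsc22d3, another glucocorticoid target, read 127 against 41.2 to 80.8. The summed level of 3 glucocorticoid-responsive genes was 284 CPM in WT replicate 5 and 122 to 146 in the other WT mice, and it was lowest of all mice, 87 CPM, in THRB-KO replicate 1. The last of these 3 genes, Sgk1, did not follow, with 13.2 CPM in WT replicate 5 inside the 9.04 to 17.3 of the other WT mice. The sum of the 3 genes was also high in THRB-KO replicate 2, at 231 CPM, with Fkbp5 at 127. Fasn, the fatty acid synthase, was at 3766 CPM in WT replicate 5 against 821 to 1302 in the other WT mice, while THRB-KO replicate 1, at 1099, lay inside its group. The Kupffer cell marker Marco read 62.3 CPM in WT replicate 5 against 2.54 to 13 in the other WT mice. Adgre1 (28.9 against at most 19.7) and Timd4 (14.6 against at most 8.72) were also highest there. Cd5l (132 against at most 124) and Vsig4 (23.3 against at most 23.2) were barely above the rest. Clec4f, at 69.9, lay inside the 29.5 to 94.8 of the other WT mice. The Kupffer sum, which includes Marco, was 331 CPM in WT replicate 5 and 282 in WT replicate 3. Per1 is itself known to respond to glucocorticoids. The part of these signals in the clock genes was not tested.

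**Figure D3:**
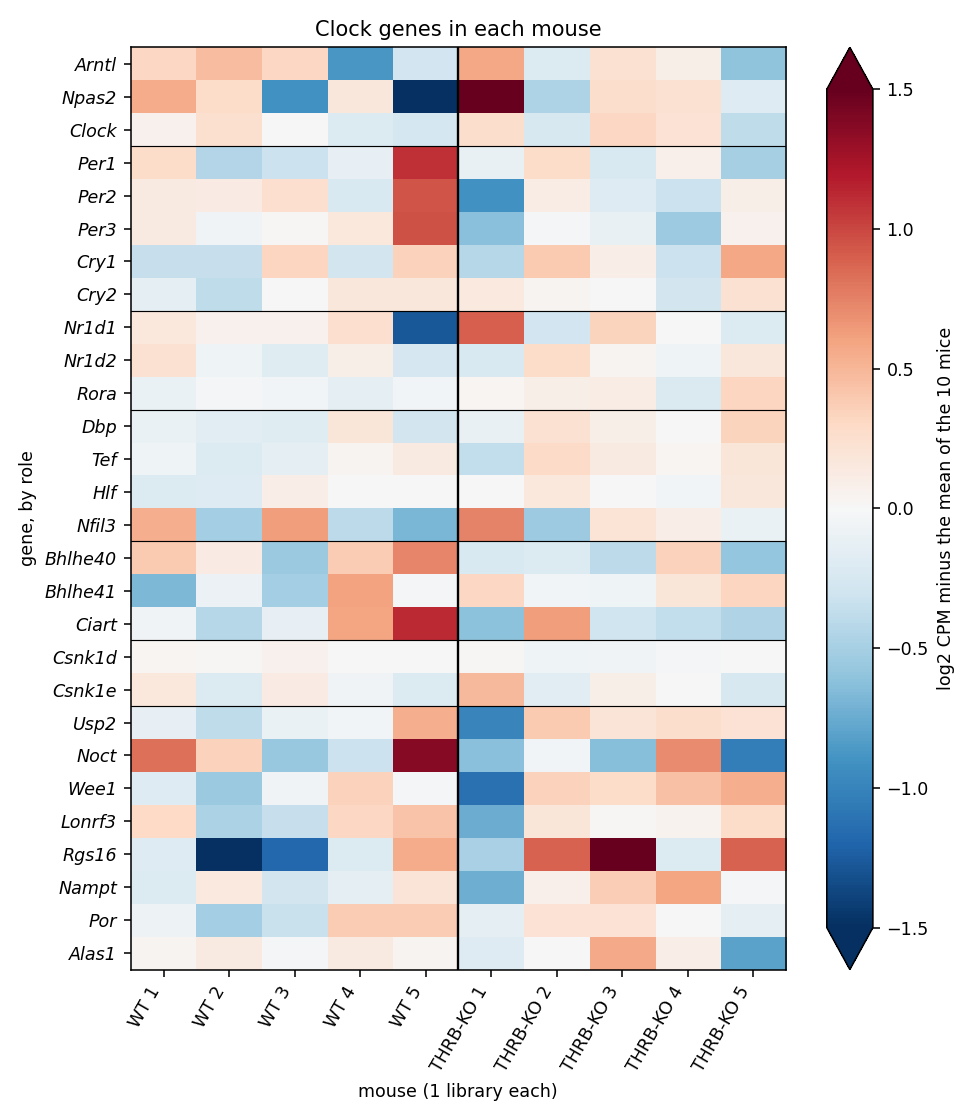
Log2 CPM of the 28 members in each of the 10 mice, minus the mean of the 10 mice for that gene, with red above and blue below the mean and genes ordered by role. The columns of WT replicate 5 and THRB-KO replicate 1 hold the strongest colours in Per2, Per3 and Nr1d1, in opposite directions. In Per1 the strongest colour is that of WT replicate 5, and THRB-KO replicate 1 is near the mean. The row of Csnk1d is nearly blank.

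Whether clock genes deviated together from mouse to mouse was asked of 8 pairs over the 10 mice, on log2 CPM, with a two-sided permutation test of 100000 resamples and adjustment over the 8 pairs, several of which share a gene. None of the 8 pairs passed an adjusted p of 0.05. Arntl and Dbp gave the strongest relation, with Pearson's r = −0.62 (permutation p = 0.057, adjusted p = 0.46) and Spearman's rho = −0.55 (permutation p = 0.10, adjusted p = 0.42). Centred on the genotype means, r was −0.78. Without the 2 mice farthest from the median of Arntl it was −0.23, so the relation did not hold without them. Without WT replicate 5 alone it was −0.85 and passed (permutation adjusted p = 0.028), and without both WT replicate 5 and THRB-KO replicate 1 it was −0.84 (permutation adjusted p = 0.075). Arntl and Nr1d1 gave r = 0.44 (permutation p = 0.21, adjusted p = 0.46) and rho = 0.47, and r = 0.86 without the 2 mice farthest in Arntl, but 0.22 without WT replicate 5 and THRB-KO replicate 1. Arntl and Npas2 gave r = 0.42 (permutation p = 0.23, adjusted p = 0.46) and rho = 0.59 on very low counts.

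The pairs within a family did not pass either. Per1 and Per2 gave r = 0.54 (permutation p = 0.13, adjusted p = 0.46) with rho = 0.18, and r was −0.16 without WT replicate 5 and THRB-KO replicate 1. Nr1d1 and Nr1d2 gave r = 0.06 (permutation p = 0.89, adjusted p = 0.89) with rho = −0.07, the weakest of the 8. Arntl with Per2 gave r = −0.28, Dbp with Per3 −0.21 and Dbp with Nfil3 −0.19, each with an adjusted permutation p of 0.67. With 10 mice, relations of this size could not be told from the spread between mice.

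**Figure D4:**
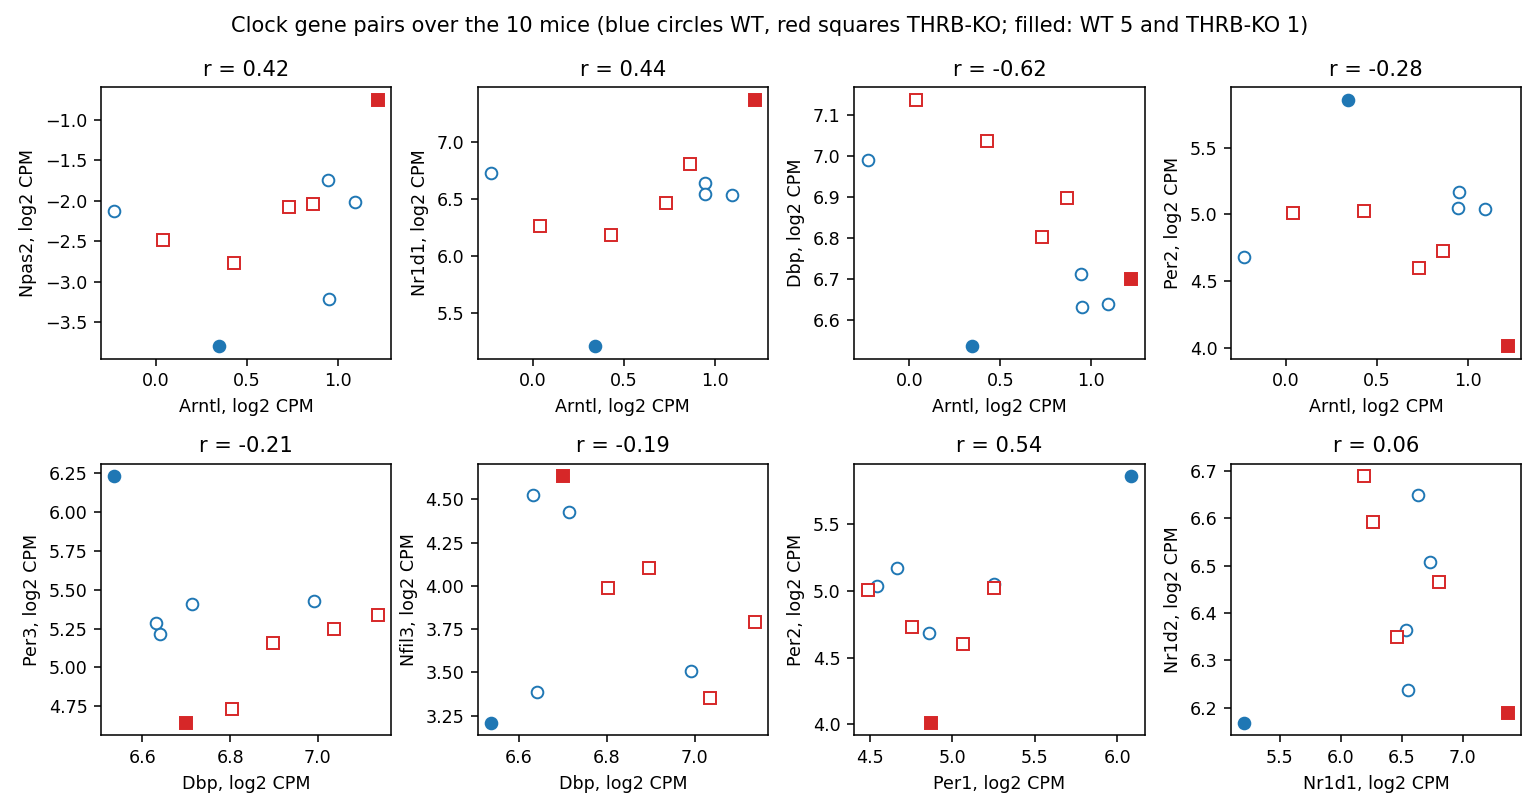
Log2 CPM of the 8 gene pairs, 1 point per mouse, with blue circles for WT and red squares for THRB-KO. Filled symbols are WT replicate 5 and THRB-KO replicate 1, and each panel gives Pearson's r over the 10 mice, from −0.62 for Arntl and Dbp to 0.54 for Per1 and Per2.

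A phase index gave 1 number per mouse. It was the mean log2 CPM of Arntl, Npas2, Clock and Nfil3 minus that of Per1, Per2, Per3, Dbp, Tef and Ciart. Whether it follows clock phase was not tested, and the genes of a set did not all move together. Dbp and Per3 gave r = −0.21. In WT replicate 5 Dbp was the lowest and Per3 the highest of the WT mice. The index was −3.62, −3.62, −3.84, −4.35 and −5.28 in WT and −2.69, −4.55, −3.58, −3.59 and −4.20 in THRB-KO livers. WT replicate 5 had the lowest and THRB-KO replicate 1 the highest index of all mice, and the other 8 lay between −4.55 and −3.58. The means were −4.14 ± 0.70 and −3.72 ± 0.71 (SD, n = 5 each), a difference smaller than the spread within either genotype. Left without Npas2, whose counts were near the floor, the index kept these mice at its ends, with −3.66 and −1.60. Of 9183 other genes with a mean of at least 5 CPM, those that followed the index most closely over the 10 mice, centred on genotype means, were Col6a1, St5, Eps8l2, Pcm1 and Ppp1r21 (r from 0.926 to 0.946). Those that ran against it most closely were Slc25a44, Prkacb, Atp5g1, Gmnn and N4bp2l1 (r from −0.955 to −0.928). These are the extremes of a search over all those genes, made with Npas2 kept in the index, and are given as a description.

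Beyond the members, a list of 32 other genes of the clock pathway, made of ubiquitin ligase subunits, kinases and chromatin partners, held 3 calls (9.38%, against 4.08% of all genes), with a median log2 fold change of −0.01. Timeless, the mammalian relative of the fly clock gene and a component of the replication fork, fell, with 8.06, 6.68, 7.36, 8.32 and 10.5 normalized CPM in WT and 6.77, 4.69, 5.63, 5.63 and 5.52 in THRB-KO livers. The lowest WT mouse lay just under the highest THRB-KO mouse, and the log2 fold change was −0.53 (SE 0.14, adjusted p = 0.082, edgeR). Cipc, which encodes an inhibitor of CLOCK, fell from 52 to 62.9 CPM in WT to 42.1 to 50.8 in THRB-KO livers with the genotypes apart, a log2 fold change of −0.28 (SE 0.07, adjusted p = 0.085, edgeR). Gsk3a, a kinase that acts on clock proteins among many others, rose from 23.6 to 27.7 CPM in WT to 28.8 to 33.4 in THRB-KO livers, also with the genotypes apart (log2 fold change 0.26, SE 0.07, adjusted p = 0.11, edgeR).

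The direction of these 3 genes was the same under 17 other settings, but their calls were not. Timeless stayed past the threshold in 13, Cipc in 9 and Gsk3a in 8 of the 17. Without WT replicate 5 all 3 calls were lost, with log2 fold changes of −0.43, −0.25 and 0.22 and adjusted p values of 0.20, 0.22 and 0.26. Without THRB-KO replicate 3 all 3 were lost as well, with adjusted p values of 0.18, 0.19 and 0.25. The call of Timeless was also lost without THRB-KO replicates 4 and 5 (adjusted p = 0.16 each). That of Cipc was also lost without WT replicates 1, 2 and 3 and THRB-KO replicate 5 (adjusted p from 0.16 to 0.17), and that of Gsk3a without WT replicates 2 and 4 and THRB-KO replicates 1 and 4 (adjusted p from 0.15 to 0.24).

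Genes that carry the daily signals into and out of the liver gave few calls as well. Of 15 rhythmic liver genes outside the clock 0 passed the threshold in edgeR, with 3 at an unadjusted p below 0.05 and a median log2 fold change of −0.01. Heat shock genes, through which body temperature reaches the liver clock, gave 0 calls of 5 tested with 0 below 0.05. Both cold-inducible RNA binding genes and all 3 glucocorticoid-responsive genes also gave 0 calls and 0 below 0.05. Of 6 genes of feeding and fasting, Srebf1, the lipogenic transcription factor, fell, from 315 to 764 CPM in WT to 213 to 315 in THRB-KO livers. Its log2 fold change was −0.85 (SE 0.23, adjusted p = 0.10, edgeR), and it was past the threshold in 11 of 17 other settings. Its call was lost without WT replicate 2 and without THRB-KO replicates 2, 3 and 4 (adjusted p from 0.17 to 0.25).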

How the data were processed

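Livers of 5 WT and 5 THRB-KO mice were profiled by stranded mRNA sequencing, and samples were grouped by the genotype in their titles. The authors mapped the reads on mm10 (GRCm38) with HISAT2 2.2.1, counted them per Ensembl gene with HTSeq 0.9.1 without using the strand, and deposited raw counts per library; reads on several genes were not counted. A deposited table of the authors' own edgeR 3.36.0 comparison holds fold changes and p-values and was not used.

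The analysis used edgeR 4.0.16 under R 4.3.3. A gene was kept if 5 or more libraries reached 1 CPM, TMM factors were applied, and genotypes were compared by the robust quasi-likelihood F-test with Benjamini-Hochberg adjustment over all 12234 genes at a threshold of 0.15, as in the study. Standard errors are the size of the log2 fold change over the square root of F, and log2 CPM carry a prior count of 2. The procedure was tested on simulated data. Alternatives were DESeq2 1.42.0, limma-voom (limma 3.58.1), RLE factors, no filter, robust settings off, a threshold of 0.05, the replicate number as a block and leaving out each mouse. Leaving out WT replicate 5 and THRB-KO replicate 1 together was chosen after seeing the data.

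All members are named, with every mouse for those in a phase pair, those with a mouse far from its group and, for the size of their fold change, Noct and Rgs16, which were added after their values were seen. Of the other lists, genes past the threshold are named. The lists of other cells covered hepatocytes, Kupffer cells, endothelium, stellate cells, cholangiocytes, lymphocytes, neutrophils, red cells and acute-phase genes; endothelial (5 tested), cholangiocyte (3) and red cell markers (4) gave 0 calls, with 2 at an unadjusted p below 0.05 in each. The members and lists were chosen with earlier results of these data known. Coordinates and exon overlaps come from GENCODE on GRCm38, where 260 of 55401 gene identifiers had no symbol. Correlations of log2 CPM between any 2 libraries ran from 0.9619 to 0.9893, and no library was a copy of another.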

Additional observations from a re-analysis of the deposited data

Results flagged for a closer look

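In 56 groups of 5 mice, 28 members in each genotype, the gap between 1 mouse and the rest was tested with Dixon's criterion, which chance passes in about 1 of 20 groups, or 2.8 of these; 6 groups passed. The members vary together in part, so these are not 6 separate events. WT replicate 5 stood apart in Per3, with 75 normalized CPM against 37.1 to 42.9 in the other WT mice, and in Nr1d1, with 36.9 against 92.8 to 106. THRB-KO replicate 1 stood apart in Usp2, with 23.9 against 54.4 to 62.6 in the other THRB-KO mice, in Wee1, with 7.82 against 20.6 to 25, and in Npas2, with 0.521 against 0.075 to 0.172, the last on at most 15 raw counts. THRB-KO replicate 2 stood apart in Ciart, with 24 against 10.1 to 12.6. The 2 genes of WT replicate 5 were known from earlier results of these data.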

How the results depend on the processing

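Over 17 other settings, which include leaving out each mouse, 0 members passed the threshold in 15, among them DESeq2, RLE factors, no filter, robust settings off and limma-voom. With 1 mouse left out the count ran from 0 to 1, where 1 is Wee1 without THRB-KO replicate 1 (0.48, adjusted p = 0.14, edgeR), and without both that mouse and WT replicate 5 it was 1, Usp2 (0.42, adjusted p = 0.069, edgeR). At a threshold of 0.05 on the adjusted p the count was 0. Over all genes the 499 calls became 885 with DESeq2, 880 with limma-voom, 165 at a threshold of 0.05, and 311 without both mice; with 1 mouse left out they ran from 222 (without THRB-KO replicate 3) to 665 (without THRB-KO replicate 1), with 227 without WT replicate 2 and 239 without WT replicate 5. The cause of these shifts was not tested.

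Of 544 refitted fold changes 26 changed sign, all in genes not past the threshold. Without both mice the log2 fold change was −0.24 for Arntl, −0.027 for Clock, 0.062 for Per1, −0.16 for Nr1d1, −0.22 for Nfil3, −0.085 for Csnk1e and 0.15 for Lonrf3, while Cry1 was at 0.36 and Por at 0.18. With 1 mouse left out it ran from −0.16 to 0.14 for Arntl, from −0.42 to 0.054 for Per1, from 0.012 to 0.17 for Clock, from 0.028 to 0.37 for Nr1d1, from −0.0029 to 0.25 for Cry1, from −0.019 to 0.13 for Cry2, from −0.082 to 0.32 for Nfil3, from −0.042 to 0.16 for Csnk1e, from −0.01 to 0.25 for Usp2, from −0.22 to 0.05 for Lonrf3, from −0.075 to 0.14 for Por and from −0.25 to 0.083 for Alas1.

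Of 120 recomputed correlations 13 changed sign. Without both mice r was 0.32 for Arntl and Per2, 0.17 for Dbp and Per3, −0.16 for Per1 and Per2 and −0.33 for Nr1d1 and Nr1d2. Without the 2 mice farthest in the leading gene it was 0.035 for Dbp and Nfil3, −0.27 for Per1 and Per2, −0.33 for Nr1d1 and Nr1d2, and 0.86 for Arntl and Nr1d1, which then passed (permutation adjusted p = 0.012). Centred on genotype it was 0.19 for Dbp and Per3, and Spearman's rho was −0.067 for Nr1d1 and Nr1d2. With 1 mouse left out r ran from −0.85 (without WT replicate 5, permutation adjusted p = 0.028) to −0.5 for Arntl and Dbp, from −0.52 to 0.0057 for Arntl and Per2, from −0.36 to 0.31 for Dbp and Per3, from −0.098 to 0.65 for Per1 and Per2 and from −0.61 to 0.41 for Nr1d1 and Nr1d2.

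Mice with the same replicate number did not deviate together, with correlations of their deviations from the group means of 0.00907, −0.202, −0.0648, −0.0582 and −0.0164. With the replicate block 0 members passed, with Per2 (−0.49, adjusted p = 0.26, edgeR) and Per3 (−0.49, adjusted p = 0.22, edgeR) at an unadjusted p below 0.05, and 348 genes passed overall. Of the other clock pathway genes, Timeless passed with the block (adjusted p = 0.12, edgeR) and Cipc (0.24) and Gsk3a (0.17) did not. Depth limited Npas2, and the spread between 5 mice per genotype limited Rgs16 and Noct, which had the widest intervals.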

Other observations

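Some genes at the edge of the clock read differently without passing the test. Gys2, the liver glycogen synthase, had a log2 fold change of 0.47 (adjusted p = 0.22, edgeR) and Avpr1a, the hepatic vasopressin receptor, of −0.60 (adjusted p = 0.16, edgeR). Cyp2b10, a cytochrome P450 induced through the receptor CAR, averaged 0.901 ± 0.535 normalized CPM in WT and 4.13 ± 5.52 in THRB-KO livers (SD, n = 5 each), and its log2 fold change was 2.19 (adjusted p = 0.31, edgeR). THRB-KO replicate 2, at 13.9 CPM, set that mean, and the other 4 THRB-KO mice lay between 0.861 and 2.57. The genes that followed the phase index included Col6a1, a collagen of the matrix, at 3.85 CPM in WT replicate 5 and 10.1 in THRB-KO replicate 1, and the mitochondrial carrier Slc25a44, which ran against it, at 153 and 79.4 CPM in the same mice.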
